A study of Rattus norvegicus with 6 samples.

Results

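The genes described here are 9 that modify, fold, trim or cross-link collagen after its chains are made: P4ha1, P4ha2, P4hb, Plod1, Plod2, Serpinh1, Pcolce, Lox and Loxl1. They form a functional family, and each probe set whose annotation gave exactly 1 of them was taken, which yielded 12 probe sets for 9 of the 10411 genes named on the array. P4ha2, Serpinh1 and Lox had 2 probe sets each, and the annotation listed no member in a probe set shared with another gene. Whether the probes also match other transcripts was not tested.

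Collagen chains are hydroxylated on proline and lysine inside the endoplasmic reticulum, where they also wind into a triple helix with the help of a dedicated chaperone. After secretion the ends of procollagen are cut off, and lysyl oxidases then convert lysine side chains into the aldehydes from which cross-links form between molecules. In muscle this work is done mainly by fibroblasts of the connective tissue that surrounds the fibres, and the resulting network carries passive tension.

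Total RNA came from the left costal diaphragm of male Wistar rats that had been fasted overnight, with 1 Affymetrix RAE 230A array per rat. The diabetic group was 3 rats given streptozotocin, a toxin of pancreatic beta cells, at 60 mg/kg when 8 weeks old, and the normal group was 3 rats given citrate buffer alone at the same age. Muscle was taken 4 weeks later and no rat received insulin, so that diabetes, weight loss and any direct effect of the toxin cannot be told apart. Values are MAS 5.0 signals, linear intensities that the authors scaled per array, so a level is compared only within a probe set.

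All 12 of 12 skeletal muscle fibre markers lay above the signal filter. The median signal was 167.6 to 180.8 on the 6 arrays. Diabetic replicate 3 stood apart in its spiked bacterial transcripts, at 1.96 times the geometric mean of the arrays, against 0.833 to 0.889 on the others. Over all probe sets, 314 of 9519 tested were higher in diabetic diaphragm (3.3%) and 331 were lower (3.48%) at an adjusted p under 0.05 with limma, a moderated linear model fitted to log2 signals of all probe sets together. Without diabetic replicate 3 these counts were 135 and 183.

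In diabetic diaphragm Lox rose more than 2-fold while Serpinh1, Pcolce and Loxl1 fell, and the 5 hydroxylase genes did not pass the test. Of the 12 probe sets, 10 exceeded the filter on mean signal (105.8) and were tested. Of these, 2 were higher, both of Lox, 3 were lower and 5 did not pass, against the 3.3% and 3.48% called over the whole array. All diabetic signals lay above all normal signals for 3 tested probe sets and below them for 4, where 15.2% and 14.4% of all tested probe sets were so separated. The plot of the 12 probe sets gives every value.

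**Figure D1:**
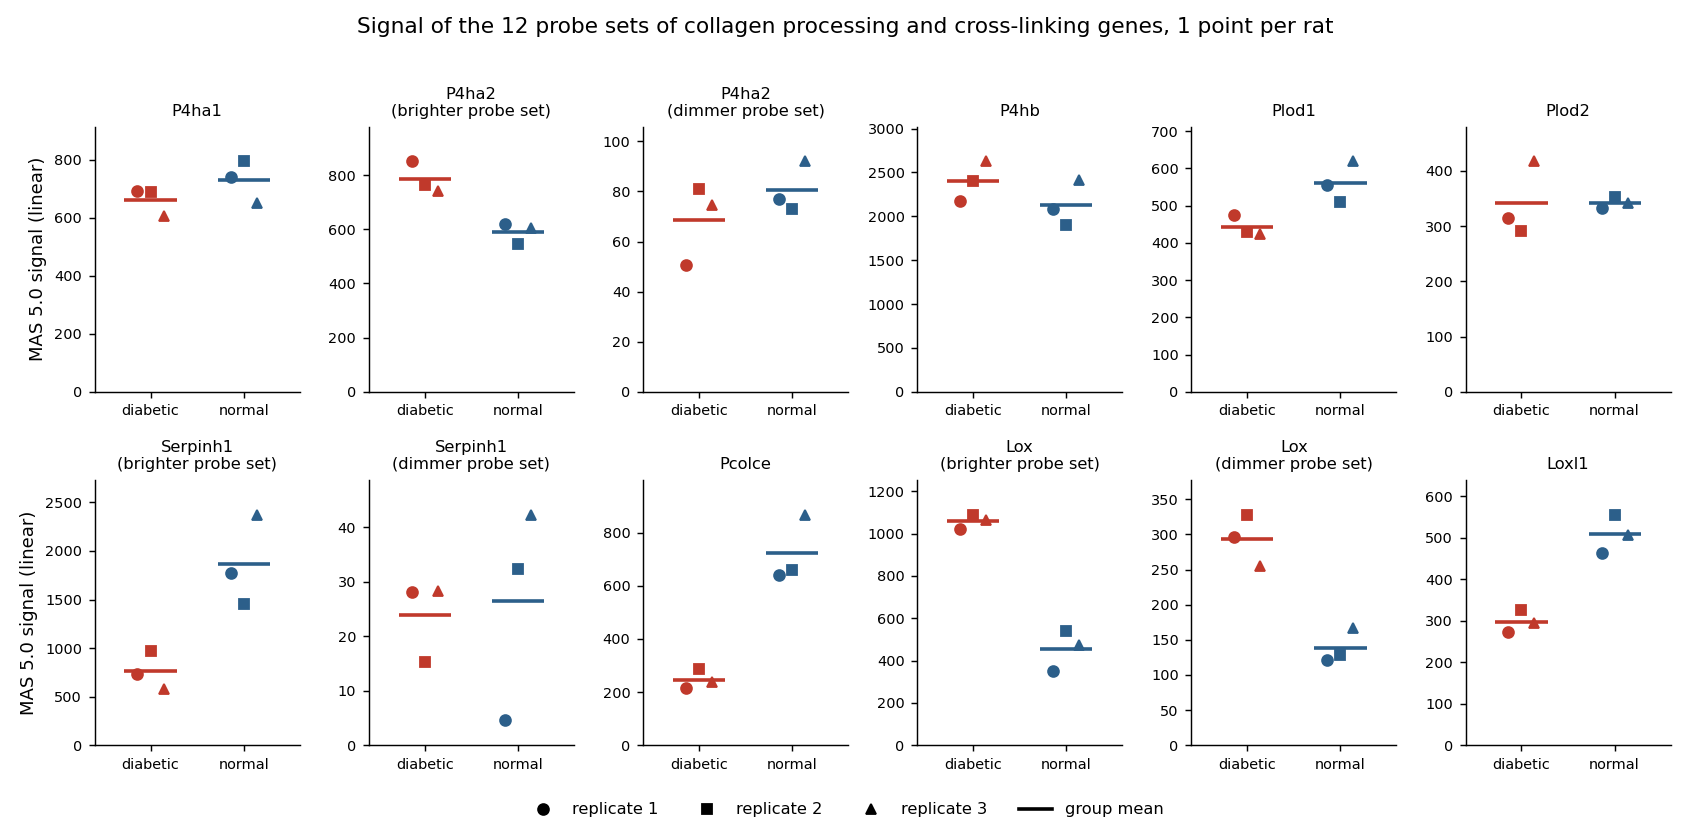
MAS 5.0 signal (linear axis from 0, a scale per panel) of the 12 probe sets in diabetic and normal diaphragm, 1 point per rat, with the marker shape giving the replicate number and the line the mean of 3. The 3 diabetic Lox signals of the brighter probe set sit between 1022 and 1088 and the normal ones between 352 and 540, whereas the order is the opposite for Serpinh1 (brighter probe set), Pcolce and Loxl1.

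Prolyl 4-hydroxylase, which makes the hydroxyproline that stabilizes the triple helix, is built from a catalytic alpha subunit, encoded by P4ha1 or P4ha2 among others, and the beta subunit P4hb. P4ha1 had signals of 693, 689 and 606 in diabetic diaphragm and 739, 795 and 652 in normal diaphragm, which overlapped. Its log2 fold change was -0.13 (standard error, SE, 0.16, limma adjusted p = 0.65), with a 95% confidence interval of -0.48 to 0.21. P4ha2 had signals of 851, 763 and 742 in diabetic diaphragm, all above the 620, 546 and 605 of normal diaphragm. Its mean was 785 ± 57.8 (SD, n = 3) in diabetic and 590.4 ± 38.9 (SD, n = 3) in normal diaphragm, a ratio of 1.33, and it did not pass after adjustment (log2 fold change 0.41, SE 0.15, limma adjusted p = 0.13, 95% confidence interval 0.076 to 0.75). The dimmer probe set of P4ha2, at 50.5, 80.9 and 74.6 in diabetic and 77.1, 72.9 and 92.0 in normal diaphragm, lay below the filter, was not tested and overlapped between groups.

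P4hb, which is also a general protein disulfide isomerase of the endoplasmic reticulum, had signals of 2173, 2404 and 2626 in diabetic diaphragm and 2086, 1898 and 2411 in normal diaphragm. The groups overlapped, and the log2 fold change was 0.17 (SE 0.15, limma adjusted p = 0.54), with a 95% confidence interval of -0.17 to 0.52. The 3 genes of this enzyme thus had log2 fold changes between -0.13 and 0.41, none of which passed.

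The lysyl hydroxylases make hydroxylysine, which carries sugars and takes part in stable cross-links; Plod1 acts on the helical part of collagen and Plod2 on its short end regions. Plod1 had signals of 476, 428 and 425 in diabetic diaphragm, all below the 555, 509 and 619 of normal diaphragm. Its mean was 443 ± 28.4 (SD, n = 3) in diabetic and 561 ± 55.3 (SD, n = 3) in normal diaphragm, and the difference did not pass (log2 fold change -0.34, SE 0.16, limma adjusted p = 0.22, 95% confidence interval -0.69 to 0.012). Plod2 had signals of 314, 292 and 417 in diabetic diaphragm, a range that enclosed the 332, 353 and 342 of normal diaphragm. Its mean was 341 ± 67.0 (SD, n = 3) in diabetic and 342 ± 10.3 (SD, n = 3) in normal diaphragm (log2 fold change -0.023, SE 0.18, limma adjusted p = 0.95, 95% confidence interval -0.43 to 0.38). Its highest value was on diabetic replicate 3.

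Serpinh1, the collagen-specific chaperone also known as Hsp47, binds the newly wound triple helix in the endoplasmic reticulum. The brighter probe set had signals of 734, 974 and 575.5 in diabetic diaphragm and 1778, 1458 and 2372 in normal diaphragm. The groups did not overlap, and the lowest normal signal was well above the highest diabetic one. The mean fell to 761 ± 201 (SD, n = 3) in diabetic diaphragm, against 1870 ± 464 (SD, n = 3) in normal diaphragm, 2.46-fold lower (log2 fold change -1.30, SE 0.23, limma adjusted p = 0.010). This was the gene with the widest spread between rats, with a coefficient of variation of 26.4% in diabetic and 24.8% in normal diaphragm. It passed with each array left out in turn, at 2.13-fold to 2.86-fold lower. The dimmer probe set, at 28.1, 15.3 and 28.4 in diabetic and 4.7, 32.4 and 42.3 in normal diaphragm, lay near the bottom of the signal range, was not tested and gives no second reading of the gene.

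Pcolce, a secreted glycoprotein, binds the carboxyl-terminal propeptide of fibrillar procollagens and speeds its removal by the proteinase Bmp1. It had signals of 217, 287 and 239 in diabetic diaphragm and 640, 659 and 867 in normal diaphragm. Every normal signal was more than 2-fold the highest diabetic one. The mean was 247 ± 35.8 (SD, n = 3) in diabetic and 722 ± 126 (SD, n = 3) in normal diaphragm, 2.92-fold lower (log2 fold change -1.54, SE 0.19, limma adjusted p = 0.0019), and it passed with each array left out in turn, at 2.63-fold to 3.17-fold lower. Its log2 fold change stood at rank 48 from the lowest of 9519 tested, and that of Serpinh1 at rank 87.

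Lox, lysyl oxidase, starts cross-linking of both collagen and elastin, and Loxl1 is a related oxidase best known for its part in elastic fibres. The brighter Lox probe set had signals of 1022, 1088 and 1063 in diabetic diaphragm and 352, 540 and 474 in normal diaphragm. The diabetic rats lay close together, with a coefficient of variation of 3.19%, and all lay above the normal rats. The dimmer Lox probe set had signals of 297, 328 and 255 in diabetic diaphragm and 122, 128 and 167 in normal diaphragm, again without overlap. Their log2 fold changes were 1.24 (SE 0.18, limma adjusted p = 0.0045) and 1.09 (SE 0.21, limma adjusted p = 0.014). The probe sets are 2 readings of 1 transcript on the same arrays, not independent evidence. The study had listed Lox from these same samples, so its direction was known beforehand. It also reported Lox as higher by real-time PCR on the same tissue.

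The brighter Lox probe set passed with each array left out in turn, at ratios of 2.09 to 2.56. The dimmer one did not pass without diabetic replicate 1, diabetic replicate 2 or normal replicate 1 (highest adjusted p = 0.059).

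Loxl1 had signals of 274, 326 and 294 in diabetic diaphragm and 462, 555 and 507 in normal diaphragm. All diabetic values were below all normal values. The mean was 298 ± 26.4 (SD, n = 3) in diabetic and 508 ± 46.6 (SD, n = 3) in normal diaphragm, 1.70-fold lower (log2 fold change -0.77, SE 0.16, limma adjusted p = 0.022). This call was close to the threshold: it was lost without diabetic replicate 1, diabetic replicate 3, normal replicate 2 or normal replicate 3, with adjusted p-values up to 0.070, although the fold stayed between 1.63 and 1.79.

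**Figure D2:**
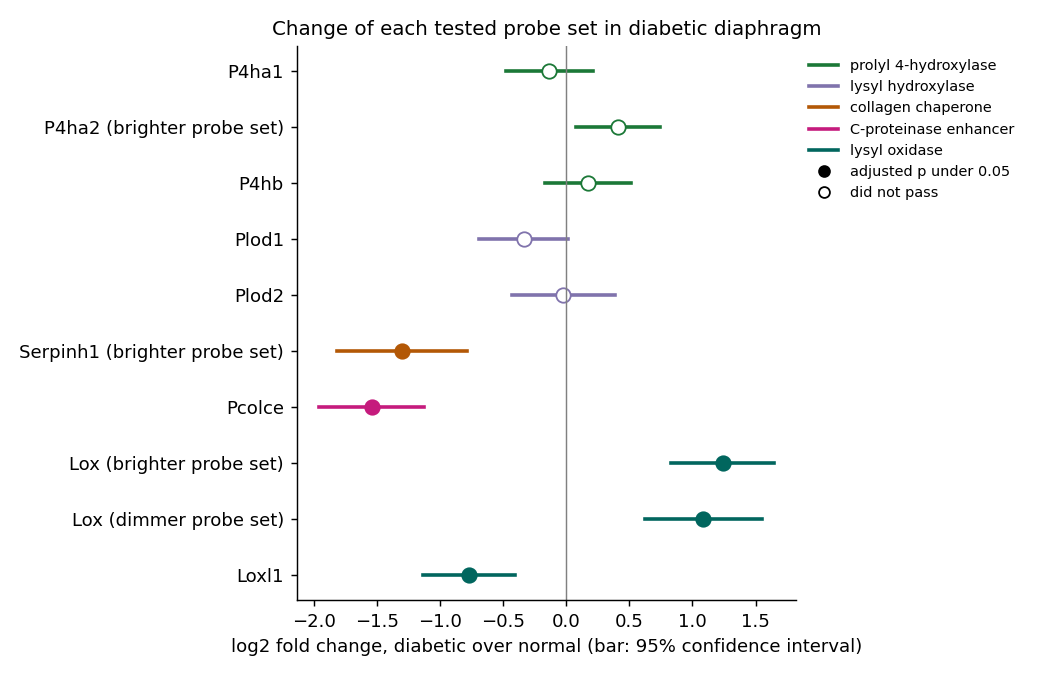
Log2 fold change, diabetic over normal, of the 10 tested probe sets with its 95% confidence interval, coloured by role, with filled points for an adjusted p under 0.05 and open points for the rest. The hydroxylases lie between -0.34 and 0.41, Serpinh1 and Pcolce lie at -1.30 and -1.54, and the lysyl oxidases lie on both sides of 0, at 1.24 and 1.09 for Lox and -0.77 for Loxl1.

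Grouped by where the products work, 1 of the 6 genes whose proteins act inside the endoplasmic reticulum passed (Serpinh1), and all 3 of those that act outside the cell passed (Pcolce and Loxl1 lower, Lox higher). Of all 7080 named genes tested, 3.46% were higher and 3.55% were lower. The grouping by place was made after the values had been seen and carries no test. In whole muscle RNA, fewer cells of a type and less RNA per cell cannot be told apart. Of the fibroblast markers, 1 of 10 tested was lower, the matrix proteoglycan Lum, and 9 did not pass, with 3 lower at an unadjusted p under 0.05, a level that 12.8% of all 7080 named genes tested reached as higher and 11.9% as lower. The summed signal of the 11 fibroblast markers measured was 26496 to 28814 in diabetic and 30074 to 33143 in normal diaphragm, with only Thy1 below the filter and none at 0. This sum mixes probe sets of unlike brightness and is only a rough description. The mean of Lum was 908 in diabetic and 2469 in normal diaphragm. The brightest markers, Dcn and Vim, had log2 fold changes of -0.11 and -0.057, and the median of the 10 tested was -0.23. Besides Lum, Pi16 (-0.53) and Dpt (-0.47) had all diabetic signals below all normal ones, as did 14.4% of all tested probe sets. Neither passed (limma adjusted p = 0.097 and 0.16). Of the 10, only S100a4 had a positive log2 fold change (0.15). The part of fibroblast number in these results was not tested.

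The promoters of the 3 genes that fell are shown because those genes were all called lower, and the letters let their shared and differing elements be compared. Whether the 3 genes are regulated together was not tested. Of the 9 genes, 8 were in the promoter sequences from RefSeq for the rat assembly GRCr8, and Lox was not among them. Each run is the 250 bases before the annotated start, 5′ to 3′ on the gene's own strand: chr1:163062977-163063226 on the minus strand for Serpinh1, chr12:24720722-24720971 on the plus strand for Pcolce and chr8:67612225-67612474 on the minus strand for Loxl1. Capitals mark each match, on either strand, to CCAAT (the CCAAT box), TATAAA (the TATA box), GGGCGG (the GC box), ACGTG (the core of the hypoxia response element) and GAANNTTC (the inverted GAA pair of heat shock elements). No marked matches overlap.
Serpinh1: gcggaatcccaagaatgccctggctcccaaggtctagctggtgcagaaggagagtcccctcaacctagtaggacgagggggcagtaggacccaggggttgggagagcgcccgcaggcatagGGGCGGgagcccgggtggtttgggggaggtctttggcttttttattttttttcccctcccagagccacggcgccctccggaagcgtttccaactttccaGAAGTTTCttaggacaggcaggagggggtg
Pcolce: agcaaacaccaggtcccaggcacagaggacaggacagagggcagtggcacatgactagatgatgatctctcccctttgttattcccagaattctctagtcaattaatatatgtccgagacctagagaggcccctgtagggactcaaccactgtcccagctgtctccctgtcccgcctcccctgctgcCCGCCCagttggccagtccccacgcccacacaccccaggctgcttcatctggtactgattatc
Loxl1: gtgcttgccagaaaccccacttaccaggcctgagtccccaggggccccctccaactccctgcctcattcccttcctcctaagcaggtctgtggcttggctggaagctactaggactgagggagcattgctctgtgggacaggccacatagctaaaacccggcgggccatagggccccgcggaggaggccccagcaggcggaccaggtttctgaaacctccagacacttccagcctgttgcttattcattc

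Serpinh1 held 1 GC box and, beginning 30 bases before the start, 1 GAANNTTC match; the Serpinh1 gene is known for its induction by heat shock. Pcolce held 1 GC box on the opposite strand, and Loxl1 held no match to any of the 5 motifs in this window. No motif was thus common to the 3 promoters. GAANNTTC was found in 4 of the 8 promoters (P4hb, Plod1, Plod2 and Serpinh1), of which only Serpinh1 passed the test, and in 7.23% of 33469 rat promoters of this length. ACGTG was found in 2 of the 8, P4ha2 and Plod2, neither of which passed, with 2 matches each, and in 16.6% of all. GC boxes were found in 6 of the 8 (P4ha2, P4hb, Plod1, Plod2, Serpinh1 and Pcolce) and in 30.5% of all, CCAAT in 1 of the 8 (P4hb) and in 34% of all, and TATAAA in 0 of the 8 and in 12.9% of all. The 33469 promoters were not limited to genes on the array, and no enrichment was tested. A match is a description of the letters and not a bound site.

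Whether related genes moved apart was examined on 5 pairs, as the difference of their log2 signals on each array, which removes any scaling of a whole array. With 3 arrays against 3, a 2-sided exact permutation test cannot go below p = 0.1, and after adjustment over the 5 pairs the lowest value was 0.17. For Lox minus Loxl1 the differences were 1.90, 1.74 and 1.86 log2 units in diabetic diaphragm and -0.39, -0.040 and -0.097 in normal diaphragm. The groups lay apart by 2.01 log2 units (standard error 0.12, exact permutation p = 0.1), many times the spread between rats within a group, whose SD was 0.083 in diabetic and 0.19 in normal diaphragm. For Lox minus Col1a1, the gene of a main chain of type I collagen, the differences were -0.67, -0.42 and -0.69 in diabetic diaphragm and -4.17, -3.21 and -3.54 in normal diaphragm, a shift of 3.05 log2 units (standard error 0.30, exact permutation p = 0.1). The directions of Lox and Col1a1 were both known from earlier results of these data. In both Lox pairs, all diabetic Lox signals lay above the normal ones and all diabetic signals of the partner lay below. The separation of these pairs and its p-value thus followed from the single-gene values and add no further evidence.

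For P4ha1 minus P4ha2 the differences were -0.30, -0.15 and -0.29 in diabetic diaphragm and 0.25, 0.54 and 0.11 in normal diaphragm, without overlap, a shift of -0.55 log2 units (standard error 0.14, exact permutation p = 0.1). With the mean over both probe sets of P4ha2, 1 of them below the filter, the shift was -0.21 (exact permutation p = 0.3). P4ha1 minus P4hb shifted by -0.31 (standard error 0.23) and Plod1 minus Plod2 by -0.32 (standard error 0.21); in both pairs the groups overlapped (exact permutation p = 0.3 each). The plot of pair differences shows the separation of the lysyl oxidases against the overlap within the lysyl hydroxylases.

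**Figure D3:**
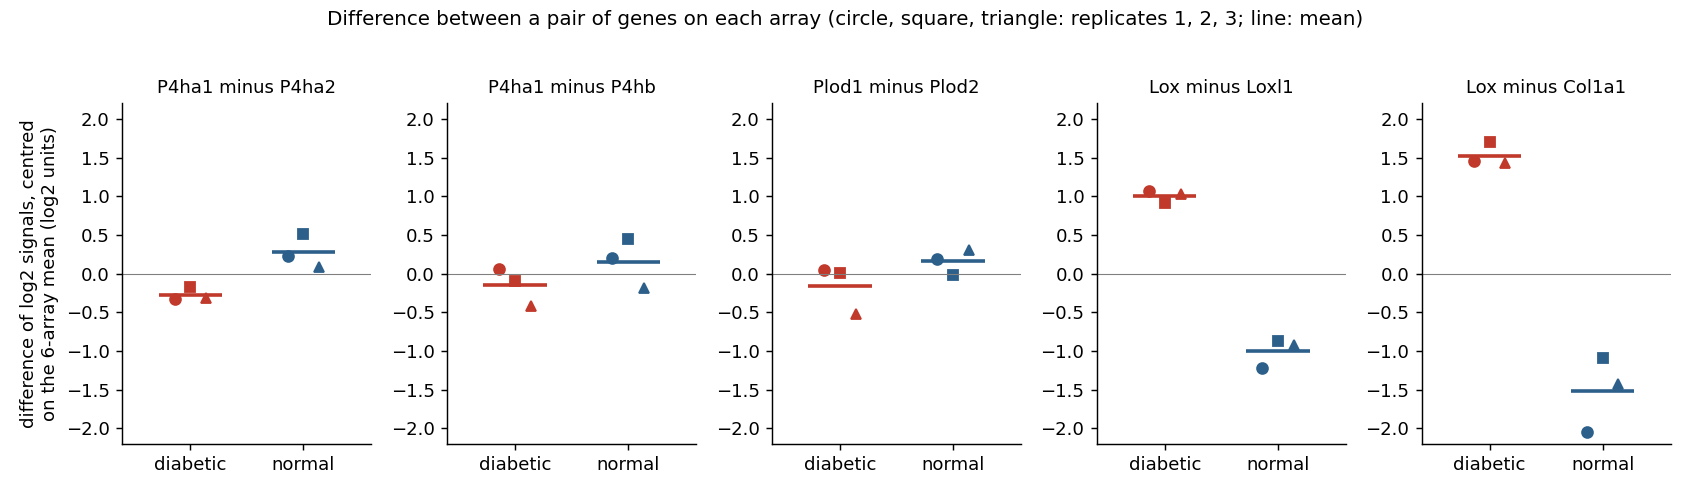
Difference of the log2 signals of a pair of genes on each array, centred on the mean of the 6 arrays, in diabetic and normal diaphragm, with 1 point per rat and a line at the mean of 3. The groups lie 2.01 log2 units apart for Lox minus Loxl1 and 3.05 for Lox minus Col1a1, and they overlap for P4ha1 minus P4hb and Plod1 minus Plod2.

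For the gene lists, the brightest probe set stood for each gene; of 7080 genes so tested, 3.46% were higher and 3.55% lower, and their median log2 fold change was 0.0080. The fibrillar collagens, the substrates of these enzymes, were lower for all 6 genes tested, with log2 fold changes from -1.90 to -0.77 and a median of -1.44; 4 further genes lay below the filter. When single arrays were dropped, Col5a3 kept its call in 1 of 6 fits (highest limma adjusted p = 0.11) and the other 5 collagens kept theirs in all 6. A dimmer probe set of Col5a2 did not pass (log2 fold change -0.59, SE 0.19, limma adjusted p = 0.093), while those of Col1a1, Col1a2 and Col5a1 were lower. Log2 fold changes were -1.90 for Col3a1, -1.81 for Col1a1, -1.58 for Col1a2 and -1.31 for Col5a1. The study had selected these genes on the same arrays and also reported them as lower by real-time PCR on the same tissue. The log2 fold changes of Pcolce (-1.54) and Serpinh1 (-1.30) lay within the range of the 6 collagens. That of Loxl1 (-0.77) equalled the upper end of this range to the second decimal. Those of the 5 hydroxylase genes (-0.34 to 0.41) and Lox (1.24) lay above it.

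Of 17 other genes of collagen processing on the array, 15 were tested and none passed limma's test, while 1 was lower at an unadjusted p under 0.05 (11.9% of all genes tested). Their median log2 fold change was -0.19, with a range of -0.97 to 0.35. Bmp1, the proteinase that Pcolce assists, had a mean signal of 240.5 ± 77.6 (SD, n = 3) in diabetic and 335 ± 38.7 (SD, n = 3) in normal diaphragm (log2 fold change -0.52, SE 0.24, limma adjusted p = 0.22). Fkbp10, a prolyl isomerase of the collagen pathway, had a log2 fold change of -0.67 (SE 0.22, limma adjusted p = 0.10). Plod3, the third lysyl hydroxylase, and Ppib, a prolyl isomerase that works on collagen, had log2 fold changes of -0.0088 and 0.022. These genes were named after their values had been seen.

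The other chaperones and folding enzymes of the endoplasmic reticulum, among which P4hb and Serpinh1 work, gave no call in 18 tested genes, with 1 higher and 3 lower at an unadjusted p under 0.05 (12.8% and 11.9% of all genes tested) and a median log2 fold change of -0.17. P4ha1, P4ha2, Plod1, Plod2 and Lox are known as hypoxia-inducible genes. Of 16 other such genes tested, 2 were higher (3.46% of all genes tested), 1 was lower (3.55%) and 13 did not pass. At an unadjusted p under 0.05, 4 of the 16 were higher and 2 were lower (12.8% and 11.9% of all genes tested). The log2 fold changes of the 16 ranged from -0.77 to 1.45, with a median of 0.23. Ndrg1, a stress-responsive protein, rose 1.98-fold and Bnip3, a mitochondrial protein that promotes mitophagy, rose 1.53-fold. Higd1a, a mitochondrial hypoxia-induced protein, fell by 0.63 on the log2 scale. With each array left out in turn, Ndrg1 passed in 6 of 6 cases, Bnip3 in 0 (highest limma adjusted p = 0.14) and Higd1a in 1 (highest limma adjusted p = 0.081).

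**Figure D4:**
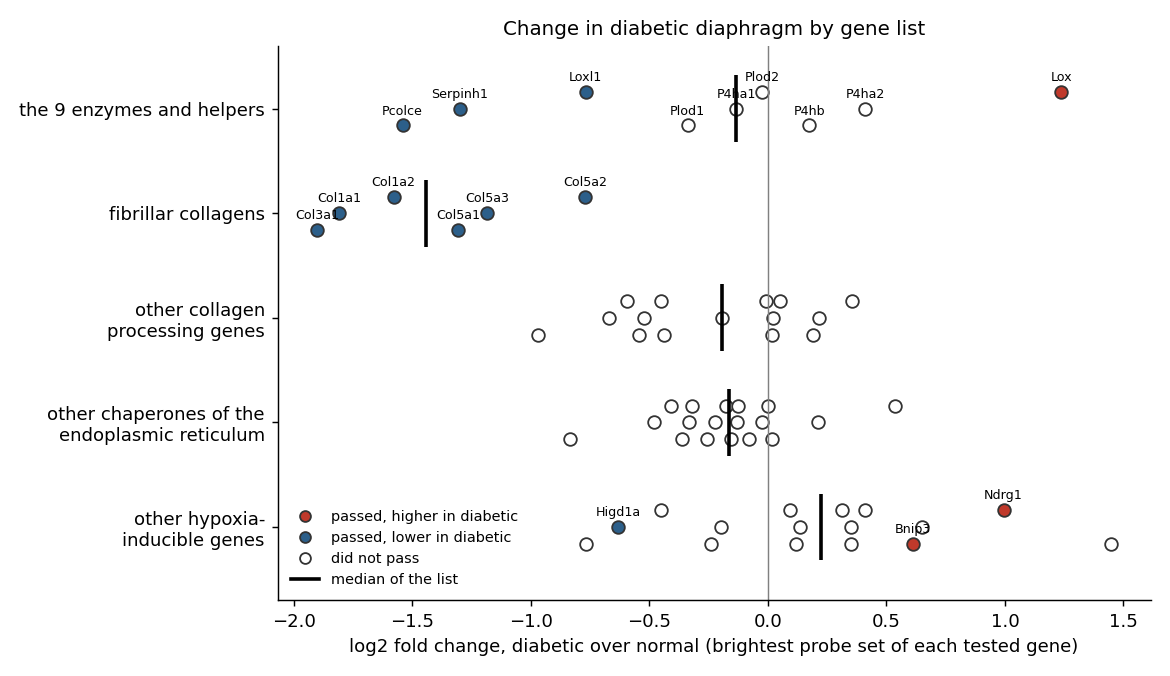
Log2 fold change, diabetic over normal, of every tested gene in 5 lists, with filled points for genes that passed limma's test, open points for those that did not and a line at each list's median. The 6 fibrillar collagens lie between -1.90 and -0.77, whereas the 15 other collagen processing genes lie between -0.97 and 0.35 with none passing.

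The genes whose pattern over the 6 arrays was most like that of the brighter Lox probe set, by the root-mean-square difference of log2 signals centred on each gene's mean, were Ubr7 (0.12 log2 units), Slc7a8 (0.14), Sat1 (0.15), Tubb4b (0.16) and Gnl3 (0.18). Ubr7 had signals of 292, 342 and 353 in diabetic diaphragm and 130.5, 184 and 168 in normal diaphragm. Like the brighter Lox probe set, all of these genes had their lowest value in each group on replicate 1. They were chosen for likeness to Lox on these same values, so the shared order is no further evidence. Slc7a8, a neutral amino acid transporter, averaged 502 ± 58.5 (SD, n = 3) in diabetic and 229.5 ± 36.0 (SD, n = 3) in normal diaphragm. Among the tested probe sets of the 9 genes the arrays did not keep 1 order: the highest normal signal was on replicate 3 for 5 of 10, on replicate 2 for 4 and on replicate 1 for 1, and the highest diabetic signal was on replicate 2 for 5, on replicate 1 for 3 and on replicate 3 for 2.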

How the data were processed

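RNA from 3 diabetic and 3 normal rat diaphragms was measured on Affymetrix RAE 230A arrays, and the authors deposited MAS 5.0 signals, an intensity per probe set on a linear scale that was scaled per array (mean of 500.2 after trimming). The MAS 5.0 settings are not stated in the sources used here. Present and absent calls and the BAM statistics were not used here. Groups and replicate numbers follow the sample titles.

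From the 15923 probe sets, 57 controls were left out, and log2 was taken after a floor of 1, which applied to 136 values. A filter at the 40th percentile of mean signal (105.8) left 9519, which were fitted with limma 3.58.1 in R 4.3.3 (lmFit, and eBayes with a trend), with Benjamini-Hochberg adjustment over all of them. With 4 residual degrees of freedom, the number of arrays limits the precision. Ratios are of group mean signals. The fit was tested on simulated data.

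Probe sets were named from the platform annotation: 12783 had 1 gene, 312 several and 2771 none. The genes, lists, pairs and alternatives were chosen with earlier results of these data known. Named are the 9 genes, up to 4 passing genes per list with the largest log2 fold changes, and the 5 genes nearest to Lox; exceptions are stated. The alternatives were quantile or median scaling, offsets of 16 and 64, other filters, no trend, array weights, a replicate block, an adjusted p under 0.1, the mean over probe sets, and each array left out. The marker lists not mentioned in the results gave these counts: skeletal muscle fibre 0 higher and 2 lower of 12 tested (Mb and Myh4), smooth muscle and pericyte 0 and 2 of 6 (Rgs5 and Acta2), endothelium 1 and 1 of 6 (Kdr and Tie1), and 0 of 4 macrophage, 3 adipocyte, 3 tendon and 5 mesothelium markers, of which 0 also had an unadjusted p under 0.05 in limma; all 3 cartilage and bone markers measured lay below the filter. Of all named genes tested, 3.46% were higher and 3.55% were lower. At an unadjusted p under 0.05 in limma, 4 of 12 fibre markers and 2 of 6 smooth muscle and pericyte markers were lower. Of the 6 endothelium markers, 1 was higher and 1 was lower at that level, which 12.8% of all genes reached as higher and 11.9% as lower. With each array left out in turn, Lum, Myh4 and Rgs5 passed in 6 of 6 cases, Mb in 1, and Acta2, Kdr and Tie1 in 0.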

Additional observations from a re-analysis of the deposited data

How the results depend on the processing

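The number of arrays limits every call. The calls of the brighter Lox probe set, Serpinh1 and Pcolce were kept in the 9 other settings of scaling, offset, filter, prior, weights and block and with each array left out, with log2 fold changes of 1.06 to 1.37, -1.50 to -1.11 and -1.65 to -1.33. The log2 fold change of Plod2, -0.023 with all arrays, ranged from -0.18 (without diabetic replicate 3) to 0.081 (without diabetic replicate 2) with each array left out, and was 0.027 without diabetic replicate 1. Against 2 probe sets of Lox called higher, 1 was called with the filter at the 60th percentile, which removes the dimmer one, and 1 or 2 were called with each array left out. Of the 3 lower probe sets, 2 or 3 were called with each array left out.

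Over the whole array, 314 higher and 331 lower calls became 200 higher with no filter, 562 higher and 585 lower at an adjusted p under 0.1, and 135 to 226 higher and 177 to 236 lower with each array left out. Arrays with the same replicate number showed no shared deviation (correlations of 0.098, -0.20 and -0.068 over tested probe sets). Arrays with different numbers gave correlations of -0.12 to 0.20. No pairing was therefore assumed, although so few arrays cannot exclude it. With the replicate number as a block there were 162 higher and 170 lower calls, 1 of the Lox probe sets was called higher, and the dimmer Lox probe set and Loxl1 did not pass (adjusted p = 0.053 and 0.054). No pair difference changed direction in any setting. For Lox minus Loxl1, median scaling cancels within an array and could not change the shift of 2.01, and quantile normalization gave 2.00. The shift was 1.79 with 64 added before log2 and 1.93 with the mean over probe sets. With each array left out it was 1.90 to 2.08. Among the lists, Col5a3 also did not pass with no filter or no trend in the variance prior, and Col5a1 with the replicate block. Higd1a did not pass with no trend or the replicate block. Bnip3 did not pass with median scaling, no filter, no trend, array weights or the replicate block. Of the cell type markers, Acta2 and Mb did not pass with median scaling, no filter, no trend or the replicate block. Kdr did not pass with no filter, no trend or the replicate block, and Tie1 with no filter or the replicate block.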
